A study of Rattus norvegicus with 8 samples.

Results

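A set of 4 genes that mark enteric glia or build their intermediate filaments was followed through all libraries: *Vim*, *Nes*, *Gfap* and *S100b*. They were picked by identifier (ENSRNOG00000018087, ENSRNOG00000018681, ENSRNOG00000002919 and ENSRNOG00000001295), paired with these symbols in the list that defined them and not in the count table. All 4 had a row among the 9848 genes of the table, and 0 were absent. The cells were the rat enteric glial line EGC/PK060399egfr, 1 established line in 4 groups of 2 libraries. THC + LPS cells were given 0.1 µg/mL THC for 1 h, and THC-COOH + LPS cells 10 nM THC-COOH for 1 h. Both then stayed in 1 µg/mL LPS, a Gram-negative bacterial cell wall component, for 24 h. LPS cells had the LPS alone, and Control cells were untreated. The 24 h are those of the labels, while the results text of the study gives a shorter time. The cannabinoids were dissolved in ethanol, and the sources used here do not say whether LPS and Control cells received it. Nor do they say whether both libraries of a group stem from different cultures, so p-values measure the spread between these samples, which may be technical.

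Intermediate filaments are rope-like polymers that give a cell its mechanical strength, and glia build them from a small set of subunits. Vimentin (*Vim*) is the subunit of most mesenchymal and many glial cells, nestin (*Nes*) is a large partner subunit of neural progenitors and of reactive glia, and glial fibrillary acidic protein (*Gfap*) is the classical subunit of astrocytes and enteric glia. S100B (*S100b*) is no filament protein. It is a small calcium-binding protein that glia both keep in the cytoplasm and secrete, and outside the cell it can act through the receptor RAGE. GFAP and S100B are widely measured as markers of glial activation in the gut. The study measured secreted S100B protein by ELISA, and the transcripts of both genes by RT-qPCR. In LPS-treated glia it reported lower S100B secretion and expression, and lower GFAP expression, after pretreatment with THC or THC-COOH. The question here was what their transcripts, and those of the other filament subunits, did in the sequenced cells.

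Poly(A) RNA was sequenced from its 3' ends (a bulk form of MARS-seq), with 545779 to 1559935 counts per library. The lowest total was that of LPS replicate 2 and the highest that of THC + LPS replicate 1. The unit of level is CPM, counts scaled to one common library size with TMM factors between 0.986 and 1.02. Changes were tested in 1 quasi-likelihood fit of edgeR over the raw counts of the 8 libraries, and p-values were adjusted over the 7875 genes whose highest raw count was above 10. DEG stands for a gene with an adjusted p under 0.05 that changed more than 1.6-fold. All 4 members were tested, and each had a raw count above 10 in every group, so none was tested on account of a single group. A transcript level in bulk RNA does not tell fewer expressing cells from less RNA per cell.

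*Vim* was the gene with the most counts in each of the 8 libraries, and *S100b* ranked between 56 and 72. *Nes* ranked between 177 and 216. *Gfap* stood far lower, at ranks 4984 to 7126, and 25.6% of the genes tested had a lower mean level. Counts were not divided by transcript length, since the assay reads the 3' end of each transcript. Of the defining markers of enteric glia among the 4, *S100b* was thus abundant in this line, while *Gfap* was detected in every library at only 8 to 41 raw counts.

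The start regions of the most and the least abundant member are shown, because LPS is known to act on many genes through factors that bind near the start, such as NF-κB and AP-1. They are the 250 bases before the transcription start in RefSeq on GRCr8, a later build than that of the counts. Capitals mark matches to TATAAA (the TATA box), CCAAT (the CCAAT box) and GGGCGG (the GC box) on either strand, which did not overlap each other here. *Vim* lay at chr17:81577011-81577260 on the plus strand, and *Gfap* at chr10:88361662-88361911 on the minus strand.
Vim: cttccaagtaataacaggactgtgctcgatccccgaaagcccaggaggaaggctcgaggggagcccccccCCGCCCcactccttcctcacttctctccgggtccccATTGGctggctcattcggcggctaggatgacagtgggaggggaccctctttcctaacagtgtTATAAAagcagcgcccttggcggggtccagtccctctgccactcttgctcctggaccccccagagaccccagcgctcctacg
Gfap: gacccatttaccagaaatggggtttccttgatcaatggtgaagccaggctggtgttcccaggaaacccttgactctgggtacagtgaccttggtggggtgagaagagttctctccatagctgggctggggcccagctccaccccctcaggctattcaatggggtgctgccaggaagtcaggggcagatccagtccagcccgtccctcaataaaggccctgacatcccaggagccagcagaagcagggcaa
The *Vim* stretch held 1 match to each of these 3 motifs, and the *Gfap* stretch held 0. The TATAAA letters of *Vim* began 82 bases before the annotated start. Of 33469 rat promoter stretches of this length, 12.9% held the TATA box, 34.0% the CCAAT box and 30.5% the GC box. The stretch of *S100b* held 3 CCAAT boxes and that of *Nes* held 2 GC boxes. None of the 4 stretches held the NF-κB motif searched, the AP-1 letters TGANTCA or the Sox letters ACAATGG on either strand. Of all stretches, 4.36% held the NF-κB motif, 6.34% the AP-1 letters and 3.23% the Sox letters. A match or its lack describes these letters only, and other forms of the NF-κB site were not searched. G and C made up 62.4% of the *Vim* stretch, 60.4% of *Nes*, 57.6% of *Gfap* and 54.8% of *S100b*, where the median over all stretches was 51.2%.

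The filament subunit *Vim* differed little between any of the groups. It had 12585 and 13112 CPM in THC + LPS cells, 14049 and 13473 CPM in THC-COOH + LPS cells, 13710 and 13542 CPM in LPS cells, and 12808 and 13490 CPM in Control cells. The lowest and the highest library thus differed by little, and the 2 pretreated groups stood at the ends of the order. From high to low, the group means were 13761 ± 407 CPM for THC-COOH + LPS, 13626 ± 119 CPM for LPS, 13149 ± 482 CPM for Control and 12848 ± 373 CPM for THC + LPS (SD, n = 2 libraries each). LPS libraries lay within the range of the THC-COOH + LPS libraries, and the ranges of Control and THC + LPS overlapped, while both LPS libraries lay above those of Control and of THC + LPS. For LPS vs Control the log2 fold change was 0.05, with a standard error of 0.04 and a 95% interval of −0.03 to 0.14 (edgeR, adjusted p = 0.877). For THC + LPS vs LPS it was −0.08 (standard error 0.04), with an unadjusted p of 0.0481 and an adjusted p = 0.804 from edgeR, and for THC-COOH + LPS vs LPS it was 0.01 (standard error 0.04, adjusted p = 0.974 from edgeR). Over the 5 comparisons made, the intervals of *Vim* reached at most a 1.12-fold change in either direction.

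Nestin transcripts showed no order of the groups beyond the spread of their libraries. *Nes* had 762 and 731 CPM in THC + LPS cells, 673 and 774 CPM in THC-COOH + LPS cells, 721 and 759 CPM in LPS cells, and 855 and 701 CPM in Control cells. Each group overlapped each other group, and the Control and THC-COOH + LPS pairs were the widest. The group means, from high to low, were 778 ± 108 CPM for Control, 747 ± 22.1 CPM for THC + LPS, 740 ± 27.1 CPM for LPS and 724 ± 71.3 CPM for THC-COOH + LPS (SD, n = 2 libraries each). For LPS vs Control the log2 difference was −0.07 (standard error 0.10, adjusted p = 0.928 from edgeR), 0.02 for THC + LPS vs LPS (standard error 0.10, adjusted p = 0.986 from edgeR) and −0.03 for THC-COOH + LPS vs LPS (standard error 0.10, adjusted p = 0.978 from edgeR). Its signs rest on single libraries: without Control replicate 1 the value for LPS vs Control was 0.075. The intervals of the 5 comparisons reached at most a 1.24-fold change.

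For *Gfap* the counts were too few to settle a change of the size that the DEG threshold asks for. It had 26.3 and 22.1 CPM in THC + LPS cells, from 41 and 16 raw counts. In THC-COOH + LPS cells it had 8.85 and 18.6 CPM, from 9 and 17 raw counts. LPS cells had 19.3 and 14.8 CPM, from 17 and 8 raw counts, and Control cells had 21.5 and 16.9 CPM, from 16 and 13 raw counts. Both THC + LPS libraries lay above every LPS and Control library, while the THC-COOH + LPS libraries lay on both sides of an LPS library. The counting error is wide at these counts: the 95% interval (exact Poisson) of the lowest library, THC-COOH + LPS replicate 1, ran from 4.05 to 16.8 CPM, and that of the highest, THC + LPS replicate 1, from 18.8 to 35.6 CPM. These intervals cover counting error only. The order of the means was THC + LPS at 24.2 ± 2.91 CPM, Control at 19.2 ± 3.24 CPM, LPS at 17.1 ± 3.17 CPM and THC-COOH + LPS at 13.7 ± 6.93 CPM (SD, n = 2 libraries each). The ranges of Control and LPS overlapped, and so did those of LPS and THC-COOH + LPS.

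The log2 fold change of *Gfap* was −0.13 for LPS vs Control, with a 95% interval of −1.03 to 0.77 (adjusted p = 0.976 from edgeR). It was 0.49 for THC + LPS vs LPS, with an interval of −0.32 to 1.31 (adjusted p = 0.904, edgeR), and −0.37 for THC-COOH + LPS vs LPS, with an interval of −1.28 to 0.55 (adjusted p = 0.921 from edgeR). Against the untreated cells, the value was 0.36 for THC + LPS (interval −0.42 to 1.15) and −0.50 for THC-COOH + LPS (interval −1.38 to 0.39). The value for THC-COOH + LPS vs Control was −0.039 without THC-COOH + LPS replicate 1 and −1.10 without THC-COOH + LPS replicate 2, and that for THC + LPS vs Control ran from 0.20 to 0.54 with 1 library left out. The point values of the 2 pretreatments thus stood on opposite sides of LPS, and both 95% intervals included 0. Their doses differed, and no test between them was made. Without THC-COOH + LPS replicate 1 the value of THC-COOH + LPS vs LPS was 0.088, so its sign rests on that library. The intervals of the 5 comparisons reached up to a 2.61-fold change, so these counts leave a change past the DEG threshold possible in each of them.

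The transcript of *S100b*, which encodes the calcium-binding protein S100B, was measured far more precisely than that of *Gfap*. It had 2173 and 2219 CPM in THC + LPS cells, 2080 and 2155 CPM in THC-COOH + LPS cells, 1955 and 2035 CPM in LPS cells, and 2029 and 2113 CPM in Control cells. Both pretreated groups lay above both LPS libraries, and LPS overlapped Control. The means, from high to low, were 2196 ± 32.5 CPM for THC + LPS, 2117 ± 52.8 CPM for THC-COOH + LPS, 2071 ± 60.0 CPM for Control and 1995 ± 56.9 CPM for LPS (SD, n = 2 libraries each). THC-COOH + LPS and Control overlapped, and so did Control and LPS. LPS vs Control gave −0.05 on the log2 scale, with a standard error of 0.07 and a 95% interval of −0.19 to 0.08 (edgeR, adjusted p = 0.926). THC + LPS vs LPS gave 0.14 (standard error 0.07), a 1.10-fold higher level with an unadjusted p of 0.0437 and an adjusted p = 0.804 from edgeR. THC-COOH + LPS vs LPS gave 0.09 (standard error 0.07, adjusted p = 0.834 from edgeR). All intervals of *S100b* stayed within a 1.21-fold change in either direction. Set against the untreated cells, which both pretreated groups share as their control, *S100b* differed by 0.08 for THC + LPS (edgeR, adjusted p = 0.943) and by 0.03 for THC-COOH + LPS (edgeR, adjusted p = 0.929) on the log2 scale. *Vim* differed by −0.03 for THC + LPS (edgeR, adjusted p = 0.970) and by 0.07 for THC-COOH + LPS (edgeR, adjusted p = 0.693), and *Nes* by −0.06 (edgeR, adjusted p = 0.977) and −0.10 (edgeR, adjusted p = 0.841).

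**Figure D1:**
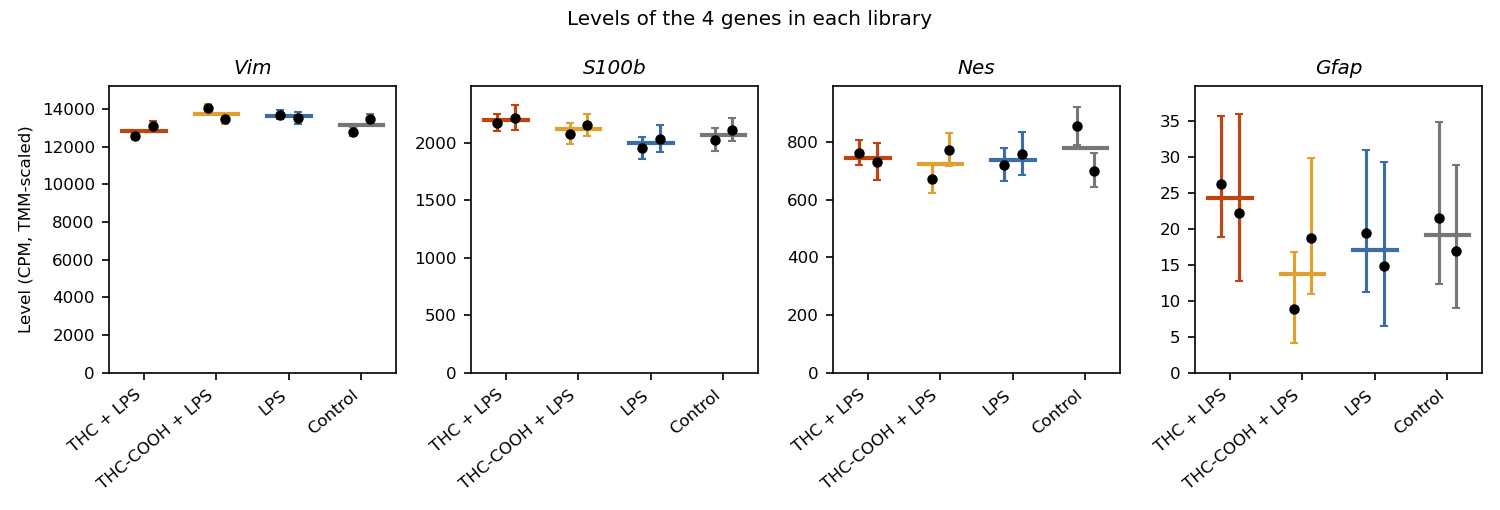
Level of each gene in CPM (vertical axes from 0, 1 scale per gene) in the 2 libraries of each group; points are libraries, whiskers the 95% exact Poisson interval of the count, and bars the group mean. *Vim*, *S100b* and *Nes* lie nearly level across the groups, while the *Gfap* whiskers, from 8 to 41 raw counts, span most of the axis.

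Across the 4 genes, 0 of the 20 changes (4 genes in 5 comparisons) passed as a DEG by edgeR, and 2 had an unadjusted p under 0.05, both for THC + LPS vs LPS. DESeq2 and limma voom also called 0 of them. Few genes of the whole table were called either: 0.0254% of those tested for THC + LPS vs LPS, 0% for THC-COOH + LPS vs LPS, 0.0381% for LPS vs Control, 0.0508% for THC + LPS vs Control and 0.0762% for THC-COOH + LPS vs Control. The 2 low unadjusted p-values, *Vim* lower and *S100b* higher with THC + LPS, were measured against the same LPS libraries. Of all genes tested, 6.16% had such a p in THC + LPS vs LPS, 6.70% in THC-COOH + LPS vs LPS, 7.16% in LPS vs Control, 5.33% in THC + LPS vs Control and 8.43% in THC-COOH + LPS vs Control. The unadjusted p of *S100b* in THC + LPS vs LPS was 0.0988 by DESeq2 and 0.0289 by limma voom. That of *Vim* was 0.218 by DESeq2 and 0.0165 by limma voom. A test for any difference among the 4 groups gave an adjusted p = 0.678 for *Vim*, 0.757 for *S100b*, 0.744 for *Gfap* and 0.954 for *Nes* (edgeR), where 0.470% of all genes passed. None of the 4 had an unadjusted p under 0.05 in that edgeR test, as 8.04% of all genes did. By limma voom the unadjusted p of *Vim* for any difference was 0.0218 (adjusted p = 0.552). In 7 of the 20 changes the libraries of the 2 groups did not overlap, 3 of them for *S100b*, 2 each for *Vim* and *Gfap* and 0 for *Nes*. Over all genes this held for 36.5% in THC + LPS vs LPS, 36.3% in THC-COOH + LPS vs LPS, 35.9% in LPS vs Control, 34.7% in THC + LPS vs Control and 38.2% in THC-COOH + LPS vs Control.

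The median absolute log2 fold change of the 4 genes was 0.06 for LPS vs Control, 0.11 for THC + LPS vs LPS and 0.06 for THC-COOH + LPS vs LPS. In the same order, the median over all genes tested was 0.20, 0.19 and 0.20. Over the 3131 genes that averaged at least 50 counts (well-counted genes), it was 0.13, 0.12 and 0.13. In 15 of the 20 changes the 95% interval excluded a 1.6-fold change in either direction. These were all changes of *Vim*, *Nes* and *S100b*, and none of *Gfap*, which was not among the well-counted genes. Among well-counted genes, such a change was excluded for 86.0% in THC + LPS vs LPS, 84.4% in THC-COOH + LPS vs LPS, 80.5% in LPS vs Control, 88.6% in THC + LPS vs Control and 82.1% in THC-COOH + LPS vs Control.

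**Figure D2:**
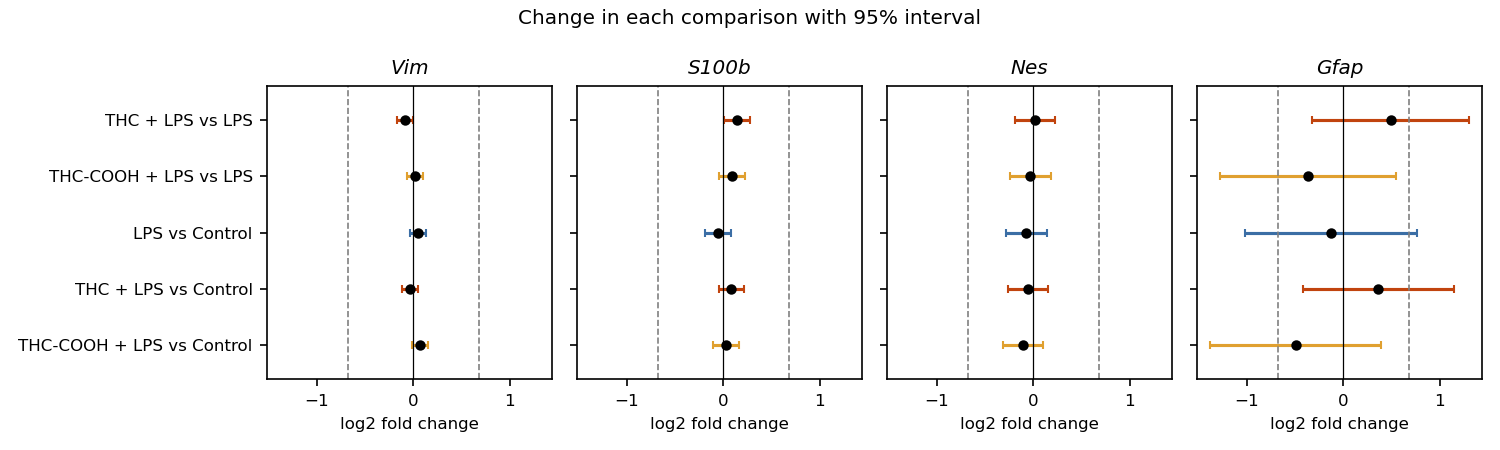
log2 fold change (horizontal axis) of each gene in the 5 comparisons, with its 95% interval from edgeR; the dashed lines mark a 1.6-fold change in either direction. The intervals of *Vim*, *S100b* and *Nes* stay between the dashed lines, and each interval of *Gfap* crosses at least one of them.

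The libraries varied in *Vim* with a coefficient of variation of 3.61% over all 8, which was above the 0.957% that its counts alone would give. For *S100b* it was 4.16%, where counting alone would give 2.41%, and for *Nes* 7.36%, where it would give 4.04%. For *Gfap* it was 28.2%, where counting alone would give 25.2%. The variance of the counts relative to that from counting was 1.58 for *Gfap*, 3.18 for *S100b*, 3.39 for *Nes* and 19.2 for *Vim*. In log2 CPM, 1.12% of the well-counted genes had a smaller SD over the 8 libraries than *Vim*, 2.08% a smaller one than *S100b* and 15.6% a smaller one than *Nes*. Highly counted genes vary less, so genes of a similar level were also compared. Of 63 genes within 0.5 log2 units of the mean level of *S100b*, 25.4% had a smaller SD, and of 149 such genes around *Nes*, 48.3% had one. *Vim* had none at its level. *Gfap*, with a mean of 17.1 counts per library, was not a well-counted gene and was left out of both comparisons.

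**Figure D3:**
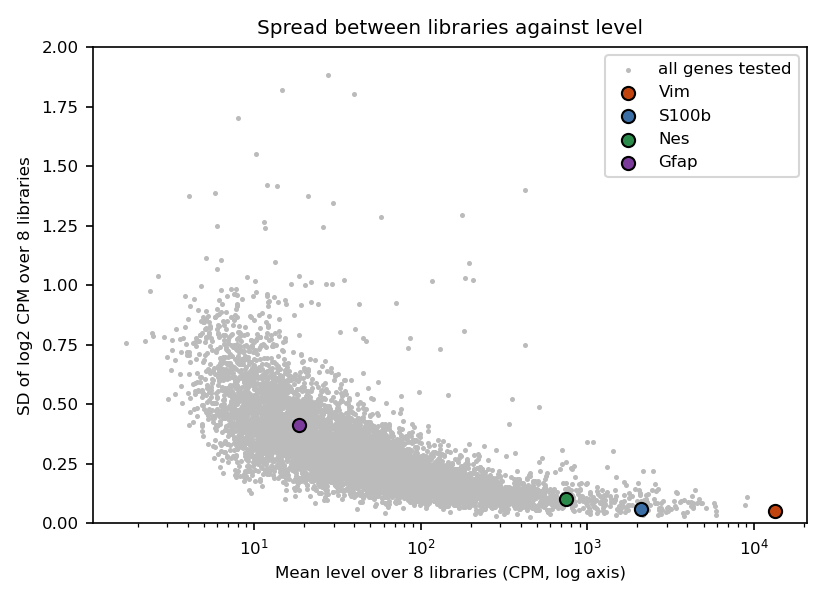
SD of log2 CPM over the 8 libraries (vertical axis) against mean level in CPM (log axis) for all genes tested, with the 4 genes marked; 4 genes lie above the axis. *Vim* is the gene farthest to the right, and *Gfap* lies among low genes with a wide spread.

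How the 4 genes stood to each other within a library was read from their shares of their summed counts, which do not depend on how libraries are scaled. *Vim* held between 81.0% and 83.6% of the sum, and *Nes* between 4.01% and 5.44%. With most of the sum from *Vim*, the *S100b* share mainly follows the ratio of *S100b* to *Vim*. It restates the levels of these 2 genes given above and is no separate finding. The *S100b* share was 14.0% and 13.8% in THC + LPS cells, 12.4% and 13.1% in THC-COOH + LPS cells, 11.9% and 12.4% in LPS cells, and 12.9% and 12.9% in Control cells. Both THC + LPS libraries lay above the other 6. How often ratios of other genes separate the libraries in this way was not counted. The difference in the *S100b* share was 1.71 percentage points for THC + LPS vs LPS and 0.957 for THC + LPS vs Control. For THC-COOH + LPS vs LPS it was 0.566, and for LPS vs Control −0.748. An exact two-sided permutation test gave p = 0.33 for THC + LPS vs LPS, THC + LPS vs Control and LPS vs Control, the smallest that 2 against 2 libraries can give, and p = 0.67 for THC-COOH + LPS vs LPS. In counts per 1000 of *Vim*, *S100b* stood at 173 and 169 in THC + LPS cells, 148 and 160 in THC-COOH + LPS cells, 143 and 150 in LPS cells, and 158 and 157 in Control cells.

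**Figure D4:**
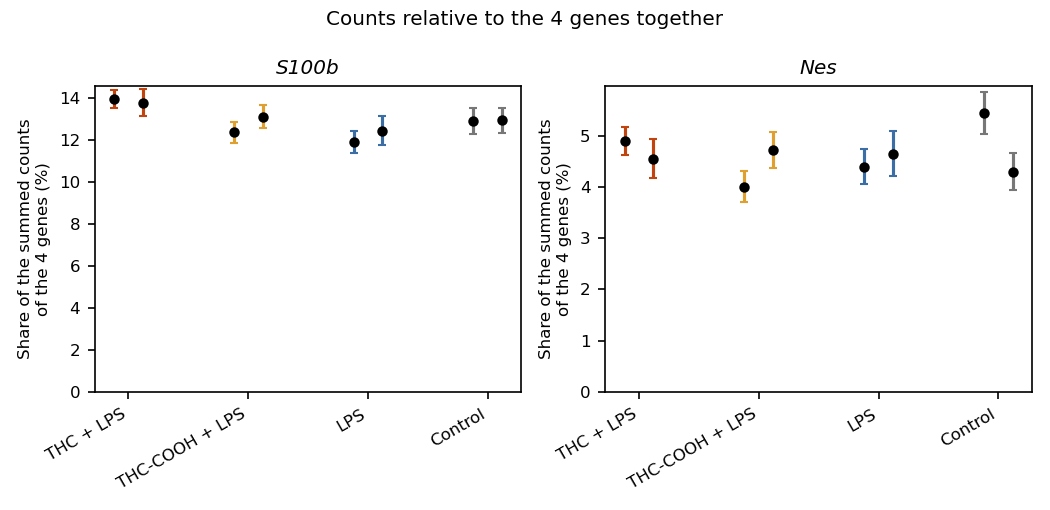
Share of *S100b* and of *Nes* in the summed counts of the 4 genes (percent, axes from 0) in each library, with 95% exact binomial (Clopper-Pearson) whiskers for counting error. The *S100b* share of the THC + LPS libraries, 14.0% and 13.8%, lies above the other libraries, and the *Nes* shares of the groups overlap.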

How the data were processed

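RNA of 8 libraries of the rat line EGC/PK060399egfr was sequenced by bulk MARS-seq, 2 libraries in each of 4 groups. The submitters' processing notes name STAR 2.7.3a, HTSeq, cutadapt, bcl2fastq 2.20.0.422, DESeq2 1.26.0 and the build Rnor_6.0, and for the annotation release and for how molecular identifiers were collapsed nothing was found in them or in the paper. The authors deposited raw counts for each Ensembl gene. They also deposited a normalized signal, in which each library was divided by its DESeq2 size factor (0.638 to 1.84). This was checked and not tested. Total counts ran from 545779 to 1559935.

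Of 9848 genes, 7875 had a raw count above 10 in a library and were tested with edgeR 4.0.16 in R 4.3.3 (TMM, quasi-likelihood, 1 coefficient per group, 4 residual degrees of freedom). Benjamini-Hochberg adjustment ran over the 7875 genes, and the DEG thresholds are those of the methods of the study. Standard errors were derived from each log2 fold change and its F statistic. Intervals and p-values use the total degrees of freedom of the fit. These add prior degrees of freedom (median 19.7), estimated from all genes tested, to the 4 residual ones. Log2 CPM used a prior count of 2. Alternatives were other scalings, filters, DESeq2 1.42.0, limma 3.58.1 (voom), the libraries of a comparison alone, a replicate block and each library left out. Figures were drawn with matplotlib 3.10.9.

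The 4 genes were all named, whatever their values; they, the lists and the tests were chosen with earlier results of these data known. Of 47357 RefSeq rat genes, 0 carried an identifier of the count table, so marker lists by symbol (other glial, neuronal, muscle, fibroblast and immune genes) were not analysed here. Promoter stretches were matched by symbol for 4 of the 4 genes. The rule for genes of like pattern took, for each of the 4, the highest and the lowest correlation among genes averaging 50 counts or more, and at most 2 identifiers of each kind are printed.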

Additional observations from a re-analysis of the deposited data

How the results depend on the processing

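None of the 4 genes passed as a DEG in any of 320 recomputed changes, nor the test for any difference among the 4 groups in any alternative, where adjusted p-values ran from 0.552 to 1.00. Of the 320, 11 turned sign, each with 1 library left out. Those omissions gave log2 fold changes from −0.017 to 0.045 for *Vim* in THC-COOH + LPS vs LPS. For *Nes* they gave −0.13 to 0.066 in THC-COOH + LPS vs LPS, −0.021 to 0.048 in THC + LPS vs LPS, −0.21 to 0.075 in LPS vs Control, −0.20 to 0.092 in THC + LPS vs Control and −0.24 to 0.046 in THC-COOH + LPS vs Control. For *Gfap* they gave −0.97 to 0.088 in THC-COOH + LPS vs LPS and −0.37 to 0.053 in LPS vs Control, and, with no change of sign, 0.34 to 0.73 in THC + LPS vs LPS, 0.20 to 0.54 in THC + LPS vs Control and −1.10 to −0.039 in THC-COOH + LPS vs Control. Over 16 alternatives for THC + LPS vs LPS, the unadjusted p of *S100b* ran from 0.0221 to 0.199 and that of *Vim* from 0.0165 to 0.292.

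The number of DEGs over all genes changed more. In THC + LPS vs LPS it was 2, with 16 when every gene with a count was fitted, 3 by DESeq2, 1 by limma voom, 4 with total counts in place of TMM, 4 from its own libraries, 211 on unadjusted p, and 1 to 10 when a library was left out. THC-COOH + LPS vs LPS had 0, with 9 when every gene was fitted, 0 by DESeq2 and by voom, 227 on unadjusted p, and 0 to 9 when a library was left out. LPS vs Control had 3, with 11 when every gene was fitted, 1 by DESeq2 and by voom, 8 with no fold threshold, 247 on unadjusted p, and 2 to 10 when a library was left out. THC + LPS vs Control had 4, with 14 when every gene was fitted, 1 by DESeq2, 9 with total counts, 15 from its own libraries, 197 on unadjusted p, and 0 to 8 when a library was left out. THC-COOH + LPS vs Control had 6, with 14 when every gene was fitted, 3 by DESeq2 and by voom, 2 from its own libraries, 11 with no fold threshold, 246 on unadjusted p, and 1 to 7 when a library was left out. Genes differing among the 4 groups numbered 37, with 69 when every gene was fitted, 11 by DESeq2 and 10 (without THC + LPS replicate 1) to 43 when a library was left out. The causes were not tested.

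A replicate block raised these numbers to 18, 8, 8, 15, 13 and 64 in the same order, with none of the 4 genes among them. Under it the unadjusted p for THC + LPS vs LPS was 0.0521 for *S100b* and 0.0590 for *Vim*. The replicate numbers were not taken to pair libraries. With 2 libraries a group there are 6 distinct values, in which the deviations from group means of same-numbered libraries correlated between −0.032 and 0.039 over all genes tested. Over well-counted genes they ran from −0.086 to 0.103, and 1 of the 6 was above 0.1. Depth limits *Gfap* most, at 8 to 41 counts per library.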

Other observations

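Over the 8 libraries, the log2 CPM of *Vim* and *Gfap* ran in opposite directions. Pearson's r was −0.85 (exact permutation p = 0.00461, adjusted p = 0.0277 over the 6 pairs of the 4 genes) and Spearman's rho −0.83 (exact permutation p = 0.0154, adjusted p = 0.0923). All permutations in this section shuffled the 8 libraries without regard to group. Their p-values thus treat the libraries as exchangeable, which libraries from 4 groups need not be, and cannot separate differences between groups from a link between genes. Without the 2 libraries farthest from the median of *Vim*, r was −0.84. Within groups, the deviations from the group means, pooled over the 4 groups, had r = −0.72, and the 2 genes moved in opposite directions between the libraries of 3 of the 4 groups. Without the THC-COOH + LPS libraries this r was −0.62. The pooled deviations amount to 1 difference per group, so they are given with no test, and *Gfap* rests on 8 to 41 counts per library. The next pair, *Vim* and *Nes*, had r = −0.69 (exact permutation p = 0.0529, adjusted p = 0.159) and rho −0.74 (exact permutation p = 0.0458, adjusted p = 0.138). Without the 2 libraries farthest from the median it had r = −0.56. Within groups its pooled r was −0.93, with opposite directions in 4 of 4 groups. The other 4 pairs had r between −0.39 and 0.59, and the lowest adjusted p among them was 0.252 for Pearson's r.

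The genes most like each of the 4 were sought among those with a mean count of at least 50 (3130 or 3131 genes) by Pearson's r of log2 CPM over the 8 libraries. The closest to *Gfap* was ENSRNOG00000047314 (r = 0.94), and the closest to *Nes* was ENSRNOG00000002914 (r = 0.93). The most opposed to *S100b* was ENSRNOG00000004741 (r = −0.98), and the most opposed to *Nes* was ENSRNOG00000020892 (r = −0.97). An r above 0.8 was reached by 28 genes for *Vim*, 29 for *S100b*, 24 for *Gfap* and 13 for *Nes*, which is under 1% of the genes searched in each case. Extremes picked from so many genes over 8 libraries are a description of these libraries.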
